A study of Mus musculus with 4 samples.

Results

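Receptors for the constant (Fc) part of immunoglobulin G were followed in alveolar macrophages of the mouse, phagocytes that live in the air spaces of the lung. The genes were taken by symbol: the activating receptors Fcgr1, Fcgr3 and Fcgr4, the inhibitory receptor Fcgr2b, the signalling chain Fcer1g and the neonatal Fc receptor Fcgrt. Of these 6 genes, 5 were measured, through 17 of the 30627 tags in the tables, among 7280 genes with counts. Fcer1g was not analysed here.

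The assay was SAGE (serial analysis of gene expression), which counts short tags that start at NlaIII sites (CATG) of cDNA. Both groups were wild-type BALB/c mice. One group was untreated and without lung metastasis (Pre AM, 2 libraries). The other (Day 21 AM, 2 libraries) had been injected intravenously 21 days earlier with BNL, a mouse hepatocellular carcinoma cell line, and had lung metastasis. The labels name no sham injection for the first group, so injection and metastasis cannot be told apart. Whether the libraries within a group are from different mice or pools is not stated, so the p-values speak to the spread between these samples alone, and that spread may be technical.

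Activating Fc gamma receptors bind antibody-coated particles and signal through the Fc receptor gamma chain, whose phosphorylated tyrosines recruit the kinase Syk after Src-family kinases such as Lyn have acted. Fcgr2b is the inhibitory member: its cytoplasmic tail carries an inhibitory tyrosine motif that recruits the phosphatase SHIP-1 (Inpp5d), and it raises the threshold for activation by immune complexes. The neonatal receptor Fcgrt works differently. It pairs with beta-2 microglobulin (B2m), binds IgG in acidic endosomes and returns it to the cell surface, which protects it from degradation.

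The libraries held 1630776 to 2198563 counts and 4779 to 5894 genes with counts each, and both were higher in the untreated libraries. Tags matched to transcripts of 1 gene held 72.0% and 69.9% of counts in untreated replicates 1 and 2. On day 21 they held 81.9% and 80.3%, and the cause was not tested. Counts of 1 are absent from all 4 libraries, so a listed 0 can stand for 0 or 1 reads of a tag. Levels are CPM, that is counts per 1000000 counts of a library whose size was scaled by the trimmed mean of M-values. In bulk RNA, fewer cells of a type and less RNA per cell cannot be told apart. Of 15 alveolar macrophage markers, 13 had counts, among them Siglecf and Chil3, with summed levels of 867 and 2639.8 CPM in untreated replicates 1 and 2 and 1651 and 3929.7 CPM on day 21. Of the defining markers, Fabp4 is listed at 0 in all 4 libraries, and the scavenger receptor Marco had 2 counts in 1 library. Of the 11 tested markers on this list, 0 passed edgeR's test, DESeq2 or limma-voom. Chil3 and Fabp5, both higher on day 21, had an unadjusted p under 0.05 in edgeR, as had 5.68% of all tested genes. Chil3 was the largest part of each sum, at 329 and 1194 CPM in untreated replicates and 1047 and 2777 CPM on day 21. Log2 changes were above 0 for 5 of the 11 and below 0 for 6 (median -0.13, and -0.07 over all tested genes). Siglecf, Itgax and Mrc1 were lower on day 21 with groups that did not overlap (16% of all tested genes), and Fabp5 higher (15.2%).

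Fcgr2b and Fcgr3 are close relatives, so the tags that tell them apart come first. In the longest GENCODE transcript of each gene, exon 3 of Fcgr2b (255 bases) and exon 3 of Fcgr3 (258 bases) matched at 241 of 255 aligned bases, or 94.5%. The main Fcgr3 tag and the Fcgr2b stretch aligned to it are shown from GENCODE M21 transcripts on GRCm38, 5′ to 3′, with the differing bases in capitals.
Fcgr3 window: caTggtgacactgaTGtgcgaaggg
Fcgr2b window: caCggtgacactgaCAtgcgaaggg
The first lies at chr1:171057863-171057887 and the second at chr1:170968152-170968176, both on the minus strand and in coding sequence. Counted from 1 at the 5′ end of the window, the Fcgr3 base first, the differences are T3C, T15C and G16A. T3C removes the NlaIII site that starts the Fcgr3 tag, and T15C with G16A creates the site that starts the main Fcgr2b tag. The receptors are thus cut at different places in the same exon, and their tags share no start. Each of the 17 tags matched transcripts of its own gene only, in the reference. Differences of the BALB/c strain from this reference were not examined.

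The tags that held most counts of the receptor genes are shown next, with the NlaIII site in capitals.
Fcgr3 tag in exon 3, coding: CATGgtgacactgatgtgcgaaggg
Fcgr3 tag in exon 5, 3′ UTR: CATGtatatttttaaacaagagaca
Fcgr2b tag in exon 3, coding: CATGcgaagggacccacaaccctgg
Fcgr2b tag in exon 8, 3′ UTR: CATGttactttaatagtaaaatgtt
Fcgr4 tag in exon 5, 3′ UTR: CATGctttgagcagcagaaataata
Fcgr4 tag in exon 5, coding: CATGtttccaccgtggcatcaaatc
Fcgr1 tag in exon 6, 3′ UTR: CATGcaactcttaaataaagcaaat
Fcgrt tag in exon 5, coding: CATGaggggctggcacagcctctca
Fcgrt tag in exon 7, 3′ UTR: CATGgttgttttccatctccacata
On GRCm38 the exon 3 tag of Fcgr2b lies at chr1:170968138-170968162 and its 3′ UTR tag at chr1:170960569-170960593, both on the minus strand. The 3′ UTR tag of Fcgr3 is at chr1:171051272-171051296, also on the minus strand. The Fcgr4 tags are at chr1:171029404-171029428 (3′ UTR) and chr1:171029153-171029177 (coding), on the plus strand. The Fcgr1 tag is at chr3:96284229-96284253, and the Fcgrt tags are at chr7:45095172-45095196 and chr7:45093075-45093099, all on the minus strand. The letters AATAAA, the common polyadenylation signal, were searched on the sense strand of the tags: 3 of the 17 tags hold them, 2 of Fcgr1 and 1 of Fcgr3, as do 2.51% of all tags. The 2 Fcgr1 tags start 5 bases apart and overlap, so the same letters are read in both.

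Fcgr3, the low-affinity activating receptor (CD16), held most of the receptor counts in every library. Its level was 359.7 and 1369 CPM in untreated replicates 1 and 2, and 1005 and 2169.7 CPM in day 21 replicates 1 and 2. The groups overlapped: untreated replicate 2 stood above day 21 replicate 1, and the untreated libraries differed from each other by 3.80-fold. The day 21 mean was 1587 ± 824 CPM and the untreated mean 864 ± 713 CPM (SD, n = 2 each). The log2 change, day 21 minus untreated, was 0.88 ± 0.62 (SE) and did not pass (adjusted p = 0.998, edgeR quasi-likelihood test with Benjamini-Hochberg adjustment over 2993 genes). It ranged from 0.22 without untreated replicate 1 to 2.17 without untreated replicate 2.

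Fcgr4, an activating receptor found on mouse monocytes, macrophages and neutrophils, was counted far less often than Fcgr3 in each library. It had 10 and 19 counts in untreated replicates 1 and 2 (4.91 and 7.77 CPM) and 21 and 62 counts on day 21 (11.99 and 44.2 CPM). Both day 21 libraries were above both untreated ones, a pattern held by 15.2% of the 2993 genes tested, with 31.2% not overlapping in either direction. The log2 change was 2.12 ± 0.80 (SE), with an unadjusted p of 0.0136, where 5.68% of genes had one under 0.05, and an adjusted p of 0.530 (edgeR quasi-likelihood test), so the difference did not pass. Day 21 replicate 2 carried much of it: the log2 change was 0.94 without that library and 2.84 without day 21 replicate 1.

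Fcgr1, the high-affinity receptor CD64, was near the lower end of what these libraries can show. It had 11 and 7 counts in untreated replicates and 7 and 4 on day 21, that is 5.40 and 2.86 CPM against 3.995 and 2.85 CPM. The groups overlapped, and the gene was below the filter on low counts, so it was not tested. Of the 14 NlaIII sites in its longest transcript, 3 have a tag in the tables, and the other sites were not analysed here. Low counts of Fcgr1 tags are therefore not a measure of the whole transcript.

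Fcgr2b, the inhibitory receptor, had 38 and 40 counts in day 21 replicates 1 and 2 (21.7 and 28.5 CPM) and is listed at 0 in both untreated libraries. All 3 of its tags had counts in both day 21 libraries, and none had any in untreated ones. With each of 3 tags at 0 or 1 reads, up to 6.43 counts per untreated library remain possible at a probability of 5%, which is 3.16 and 2.63 CPM. Against that limit Fcgr2b was at least 8.67-fold higher on day 21, and at least 7.50-fold higher with day 21 replicate 2 left out. The bound takes the day 21 mean without its own error.

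Among the 4 tested members Fcgr2b was the 1 that rose (adjusted p = 0.000565, edgeR quasi-likelihood test), where 0.668% of the 2993 genes tested were called higher, 0.0668% lower and 0.735% in either direction. Of the 4, 3 had a log2 change above 0, as had 45.5% of all tested genes. The fitted log2 change of 8.58 ± 1.36 (SE) depends on the prior count, since 1 group is at 0, and is no bound. With untreated libraries at 0, Fcgr2b and its exon 3 tag passed the filter on low counts through day 21 alone. Their tests are therefore no support beyond those counts. The call was lost with limma-voom (adjusted p = 0.313) and without untreated replicate 1 (adjusted p = 0.0701). Over the 12 alternatives the adjusted p ran from 6.84e-07 to 0.313. Per tag, 6 of the 17 tags had enough counts to be tested, and 1 rose, the exon 3 tag of Fcgr2b with 23 and 35 counts against 0 and 0 (adjusted p = 0.0237, edgeR over 3907 tags, of which 0.358% were called higher). That tag did not pass with total-count scaling (adjusted p = 0.0656) or without day 21 replicate 2 (adjusted p = 0.121).

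Fcgrt, the neonatal Fc receptor, showed no such split. It had 83.9 and 161.9 CPM in untreated replicates 1 and 2 and 83.9 and 137.5 CPM on day 21, with overlapping groups. The log2 change was -0.15 ± 0.63 (SE; adjusted p = 0.998, edgeR) and turned positive without untreated replicate 2 (0.43) or without day 21 replicate 1 (0.22). B2m, its light chain, had 2 and 136 counts in the untreated libraries and 10 and 56 on day 21, and its log2 change was -0.33 ± 0.99 (adjusted p = 0.998). In both groups replicate 2 had more B2m and more Fcgrt than replicate 1.

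**Figure D1:**
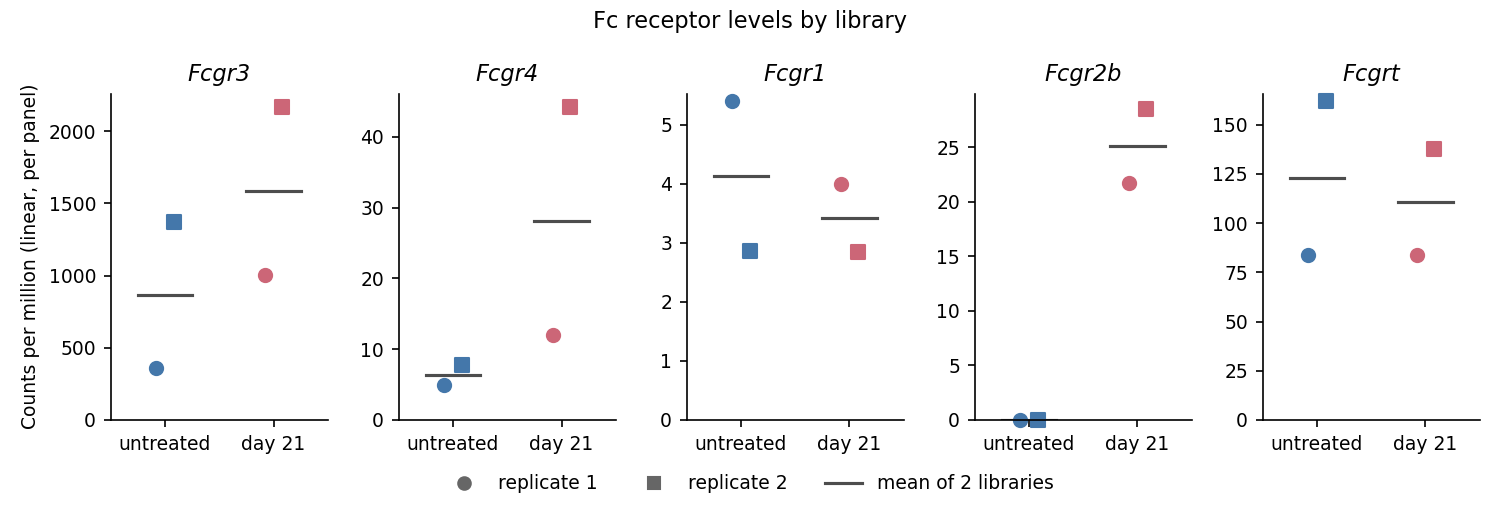
Level (CPM) of each Fc receptor gene in each library, on linear axes that start at 0 and differ between panels. Circles are replicate 1, squares are replicate 2 and lines are means of 2 libraries. Fcgr2b is at 0 in both untreated libraries and at 21.7 and 28.5 CPM on day 21, the groups of Fcgr4 do not overlap either, and those of Fcgr3, Fcgr1 and Fcgrt do.

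The order of levels differed between groups at its lower end only. In untreated libraries it was Fcgr3, Fcgrt, then Fcgr4 and Fcgr1, whose values overlapped, then Fcgr2b. On day 21 it was Fcgr3, Fcgrt, then Fcgr4 and Fcgr2b, whose values overlapped, then Fcgr1. By design a tag counts a transcript at 1 site whatever its length, and the levels were not scaled by length. The sums here, however, add tags from 3 or 4 sites per gene, and the sites used differ between genes. The order is therefore one of listed tags and not a measure of whole transcripts. Replicate 2 was above replicate 1 in both groups for Fcgr3 (3.80-fold untreated and 2.16-fold on day 21), for Fcgr4 (1.58-fold and 3.69-fold) and for Fcgrt (1.93-fold and 1.64-fold). Fcgr1 ran the other way, at 0.530-fold and 0.713-fold, on 11 counts or fewer.

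**Figure D2:**
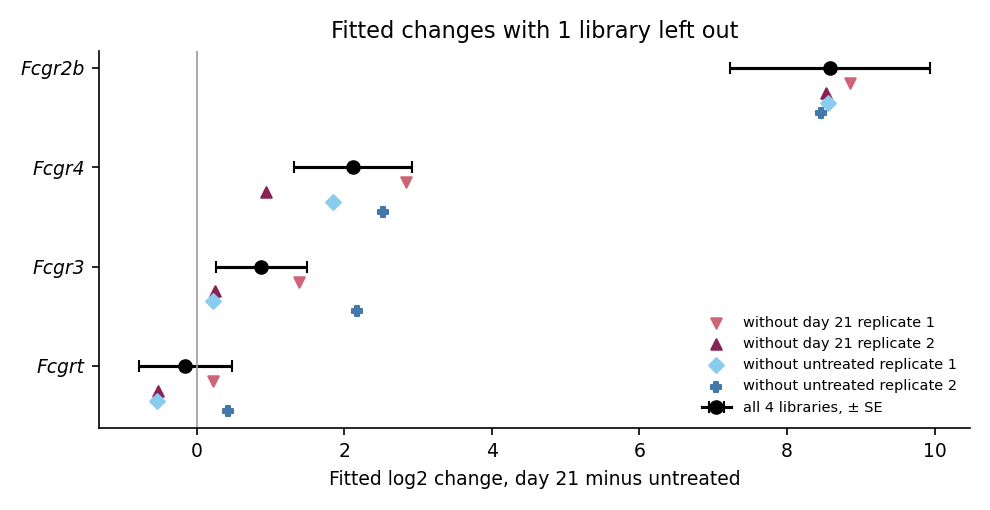
Fitted log2 change (day 21 minus untreated) of the 4 tested genes, with all libraries (black circles, bars ± SE) and with 1 library left out (coloured symbols). Fcgr4 (0.94 to 2.84) and Fcgr3 (0.22 to 2.17) stay above 0 whichever library is left out, Fcgrt (-0.54 to 0.43) crosses 0, and the value of Fcgr2b depends on the prior count because its untreated libraries are at 0.

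The balance of inhibitory and activating receptors was then expressed within each library, as the share of the summed counts of Fcgr1, Fcgr2b, Fcgr3 and Fcgr4. This removes differences in library size and in the overall receptor level. Fcgr2b made up 38 of 1827 receptor counts in day 21 replicate 1, a share of 2.08% (exact Clopper-Pearson 95% interval 1.48% to 2.84%). In day 21 replicate 2 it made up 40 of 3151, or 1.27% (0.908% to 1.72%). In untreated replicates 1 and 2 it was 0 of 754 and 0 of 3373, which with tags read once allows up to 0.853% and 0.191%. The upper limit in each untreated library was below the lower limit in each day 21 library as printed, for counting error only. The levels differ, however: an untreated limit leaves 5% in a single tail, and a 95% interval divides its error between both tails. The narrow gap from 0.853% (untreated replicate 1) to 0.908% (day 21 replicate 2) is therefore not shown at a matched level. The shares differed by 1.67 percentage points between the group means, and the two-sided exact permutation test of 2 against 2 libraries gave p = 0.333, the smallest p it allows.

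Fcgr3 remained the bulk of the receptor counts throughout, at 97.2% and 99.2% in untreated replicates 1 and 2 and 96.4% and 96.6% on day 21. Fcgr4 took 1.33% and 0.563% in untreated libraries and 1.15% and 1.97% on day 21, so that relative to the other receptors its groups overlapped (exact permutation p = 0.667). Fcgr1 took 1.46% and 0.208% in untreated libraries and 0.383% and 0.127% on day 21. The inhibitory receptor thus made up at most 2.08% of receptor counts in any library. Of the 14 NlaIII sites in the longest Fcgr2b transcript, 3 have a listed tag, without the last site. For Fcgr3 it is 4 of 5, with the last site. These shares are therefore of listed tags and are not a measure of whole transcripts.

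**Figure D3:**
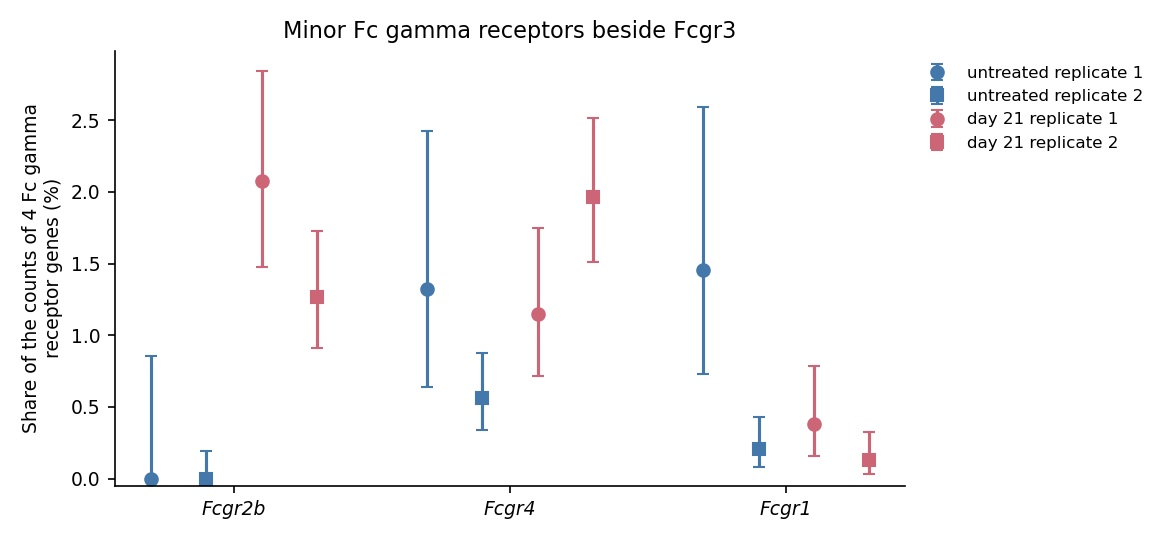
Share of Fcgr2b, Fcgr4 and Fcgr1 in the summed counts of the 4 Fc gamma receptor genes, in percent, per library. Bars are exact 95% intervals, and for Fcgr2b at 0 they reach the limit that tags read once allow, a single-tail limit at a probability of 5%. The Fcgr2b shares on day 21 (2.08% and 1.27%) lie above the untreated limits (0.853% and 0.191%), while Fcgr4 shares overlap between groups.

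The counts of a gene were also compared between its own tags. For Fcgr3 the exon 3 tag, at the fourth NlaIII site from the 3′ end of the longest transcript, held 89.1% and 87.4% of the gene's counts in untreated replicates 1 and 2 and 90.9% and 95.01% on day 21. The tag at the last site, in the 3′ UTR, had 80 and 419 counts in untreated libraries and 155 and 141 on day 21. The exon 3 tag had a log2 change of 0.99 ± 0.65 (SE) and the last tag one of -0.13 ± 0.72 (adjusted p = 0.999 for both, edgeR over tags). The exon 3 share was 4.71 percentage points higher on day 21 on average, with groups that did not overlap and an exact permutation p of 0.333, the smallest possible. Most of that difference was in day 21 replicate 2, whose interval of 94.2% to 95.8% lay above those of the other libraries, while that of day 21 replicate 1 (89.4% to 92.2%) overlapped that of untreated replicate 1 (86.6% to 91.3%).

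Day 21 replicate 2 also stood apart in the tags of other members. In Fcgrt the exon 5 tag held 66.3% of the counts there and 49.0% to 52.8% in the other libraries. In Fcgr4 the coding tag had 36 counts there against 24 for the 3′ UTR tag, while the 3′ UTR tag led in the other 3 libraries. In Fcgr2b the exon 3 tag held 87.5% of the counts in day 21 replicate 2 and 60.5% in replicate 1, and the 3′ UTR tag 2 and 10 counts. The exon 3 tag is present in 5 of the 7 Fcgr2b transcripts of GENCODE M21 and the 3′ UTR tag in 2. In each of these 4 genes, Fcgr3 included, the 3′ UTR tag shown above thus took its smallest share in that library, among libraries with counts. Fcgr1 differed: its 3′ UTR tag shown above held all 4 of its counts in that library and 42.9% to 57.1% in the others. The part of this in the gene totals was not tested.

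**Figure D4:**
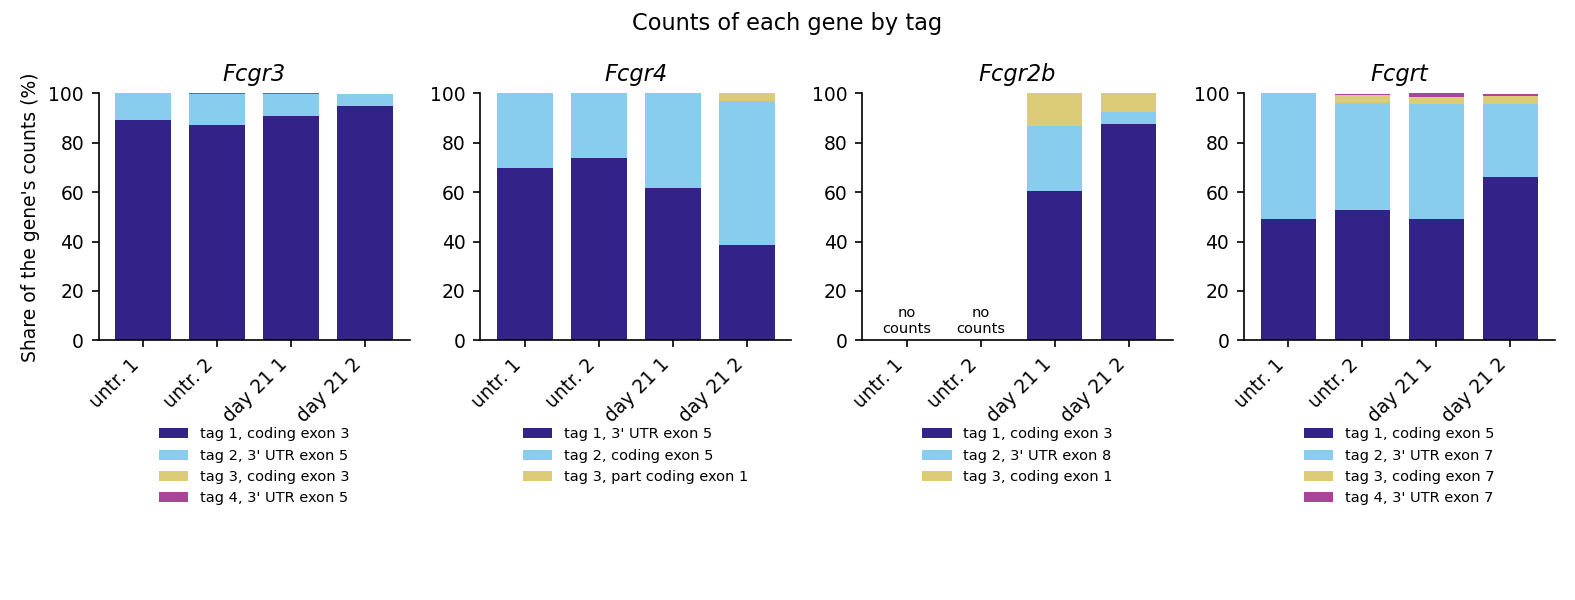
Share of each tag in the counts of its gene, in percent, per library (untr. is untreated). Colours are tags in order of their total counts, with their place in the transcript in the legend. Day 21 replicate 2 has the smallest 3′ UTR share in all 4 genes, for example 29.5% for the second tag of Fcgrt.

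The signalling genes downstream of the receptors were taken as a list of 37, of which 29 had counts and 18 were tested. Of these 18, 1 rose (Lat2), 0 fell and 17 did not pass, against 0.735% called among all tested genes (edgeR). At an unadjusted p under 0.05 (edgeR) the list also held 1 gene of 18, Lat2, where 5.68% of all tested genes had one. DESeq2 and limma-voom each called 0 lower. The median log2 change of the list was -0.40 and that of all tested genes -0.07. In the list 12 of the 18 were below 0 and 6 above 0, where 45.5% of all tested genes were above 0. Without untreated replicate 2 the list's median was -0.05, beside 0.00 for all genes tested in that fit. Lat2, an adaptor of immune receptor signalling, had 8 and 0 counts in untreated libraries and 95 and 132 on day 21 (log2 change 5.26 ± 0.99 SE, adjusted p = 0.00423). It did not pass with total-count scaling, with limma-voom, with tags of 1 gene alone, or without untreated replicate 1.

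Syk and Lyn, kinases that start the cascade, had lower levels on day 21 but did not pass. Syk, the kinase recruited to the phosphorylated gamma chain, was at 269.9 and 157.4 CPM in untreated replicates and 157.0 and 120.4 CPM on day 21 (log2 change -0.62 ± 0.61 SE, adjusted p = 0.998). Lyn, which phosphorylates both activating and inhibitory tails, was at 618 and 540.5 CPM and then 473 and 329.9 CPM (log2 change -0.53 ± 0.57). Both untreated libraries were above both day 21 libraries for both kinases, as for 16% of all tested genes, and for Syk by a margin of 157.4 to 157.0 CPM.

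Neither phosphatase of the inhibitory arm passed, and their log2 changes were of opposite sign. Inpp5d (SHIP-1), the lipid phosphatase recruited by Fcgr2b, was at 93.7 and 65.0 CPM in untreated replicates and 101.6 and 109.7 CPM on day 21 (log2 change 0.41 ± 0.62 SE, adjusted p = 0.998). Ptpn6 (SHP-1), a tyrosine phosphatase, was at 19.6 and 25.8 CPM and then 12.6 and 10.7 CPM (log2 change -0.96 ± 0.73, adjusted p = 0.998). Plcg2, a phospholipase that raises calcium, had 0 to 7 counts and was not tested. Tyrobp (DAP12), an adaptor chain of other myeloid receptors with the same kind of activating motif as the gamma chain, was at 14448 and 24914 CPM in untreated replicates and 21073 and 39528 CPM on day 21. Its groups overlapped (log2 change 0.62 ± 0.47, adjusted p = 0.998). Of 13 other Fc and antibody receptors on the list, Pigr and Fcrla had tags in the tables and are listed at 0, and the other 11 were not analysed here.

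**Figure D5:**
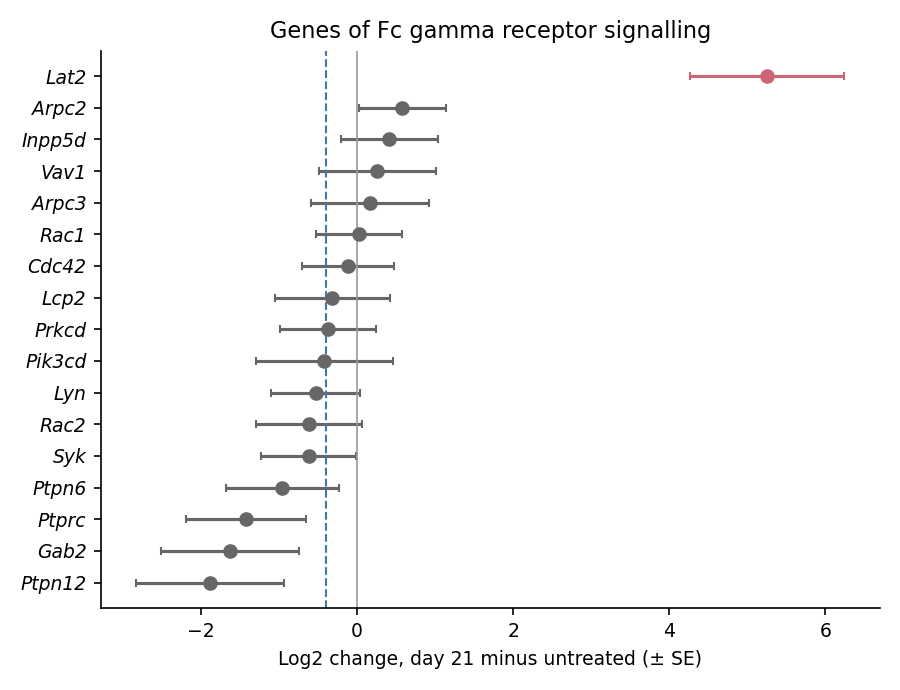
Log2 change (day 21 minus untreated, bars ± SE) of 17 of the 18 tested genes of Fc gamma receptor signalling. The dashed line is the median over all 18 (-0.40), the grey line is 0, and Lat2, in red, is the 1 gene past the threshold.

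Markers of other cells were read beside these results. Fcgr2b is carried by B cells, and the B cell markers Cd79a and Cd79b are listed at 0 in all 4 libraries, while Cd22 had 3 counts, in untreated replicate 2. Of 12 markers of NK or T cells, 5 had tags (Ncr1, Nkg7, Gzma, Klrb1c and Cd3d), all listed at 0, and of 7 dendritic cell markers Zbtb46 had tags and is listed at 0. Markers of monocyte-derived or interstitial macrophages formed a list chosen with earlier results of these data known, so its calls are no independent support. Of 14, 12 had counts, 9 were tested and 6 rose, with summed levels of 64.8 and 133 CPM in untreated replicates and 2354 and 3429 CPM on day 21 (edgeR quasi-likelihood test, where 0.668% of all tested genes were called higher). The 3 tested markers that did not pass were Ly6c2, Csf1r and Cd14 (adjusted p = 0.740, 0.625 and 0.998, edgeR). The complement genes C1qb and C1qc, listed at 0 in both untreated libraries and so past the filter through day 21 alone, rose. So did Apoe (apolipoprotein E), the lipid receptor Trem2, the metalloproteinase Mmp14 and Ms4a7. The count was 3 with limma-voom and 0 without untreated replicate 1, where 0 genes were called in all and 6 of this list had an unadjusted p under 0.05. Within that list Folr2 is listed at 0 in all 4 libraries, and the monocyte chemokine receptor Ccr2 had 2 counts in each day 21 library. The platelet chemokine gene Pf4 also rose, with 0 and 4 counts in untreated replicates and 35 and 37 on day 21 (log2 change 4.64 ± 0.996 SE, adjusted p = 0.0172, edgeR). It did not pass with total-count scaling, limma-voom, tags of 1 gene alone or without untreated replicate 1, and the platelet markers Gp9, Itga2b and Gp1bb are listed at 0. The epithelial adhesion gene Epcam had 109 and 66 counts in untreated replicates and 34 and 7 on day 21, and did not pass (log2 change -1.70 ± 0.77 SE, adjusted p = 0.768, edgeR). The part of any of these cells in the Fcgr2b result was not tested.

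Neutrophil markers, read because neutrophils carry Fcgr3 and Fcgr4, had a higher summed level in replicate 2 of both groups. Their summed level was 10.8 and 158 CPM in untreated replicates 1 and 2 and 75.9 and 278 CPM on day 21, from 6 of 10 markers with counts and mostly from Camp, an antimicrobial peptide. The defining marker Cxcr2 is listed at 0, S100a8 had 0 to 5 counts and S100a9 0 to 30. Mmp8 did not follow, with 3 and 2 counts in untreated replicates and 0 on day 21. Camp and S100a9 were the 2 markers tested, and neither passed. Their log2 changes were 1.09 ± 0.82 and 0.94 ± 0.99 (SE, adjusted p = 0.998 for both, edgeR). Fcgr3 and Fcgr4 were likewise higher in replicate 2 of both groups. So were Fcgrt, B2m and the summed alveolar macrophage markers, so the pattern was not particular to neutrophil genes. The part of neutrophils in the levels of Fcgr3 and Fcgr4 was not tested.

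The genes most like Fcgr2b across the 4 libraries were sought among 2005 tested genes whose mean level reached 10 CPM, leaving out predicted genes. Likeness was the root mean square difference of log2 CPM (prior count 2), each gene centred on its own mean. The nearest were Cxcl16, a transmembrane chemokine (0.27), Ms4a7, a macrophage membrane protein (0.38), and Ecm1, an extracellular matrix protein (0.43). Cxcl16 was at 372.7 and 374.1 CPM on day 21 and 16.7 and 10.2 CPM in untreated mice. With 4 libraries this is a description of the shape only, and it depends on the prior count where Fcgr2b is at 0.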

How the data were processed

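Tags were made with NlaIII and EcoP15I and amplified by PCR, per the labels' protocols. The deposited values are raw tag counts, one per tag of 21 bases, per the file headers. The submitters' processing notes name the build mm9. How tags were matched and filtered is not given in the sources used here. PCR copies were not told apart, so intervals cover counting error only.

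Counts of tags were summed per gene, named by RefSeq accession through a RefSeq gene table (GRCm38.p6). All 17 tags kept their deposited symbol. CATG plus each tag was looked up in the transcripts of GENCODE M21 (GRCm38). Genes were tested with edgeR 4.0.16 (R 4.3.3), quasi-likelihood, TMM scaling, filterByExpr (minimum count 10, total 15), group as the only term and Benjamini-Hochberg adjustment over 2993 genes (3907 tags in the fit per tag), with a threshold of 0.05. Standard errors were taken as log2 change over root F. Alternatives used DESeq2 1.42.0 and limma 3.58.1. The test was tried on simulated counts. Members and lists were chosen with earlier results of these data known. Named were all members, every called gene of the signalling list, Syk, Lyn, Plcg2, Inpp5d, Ptpn6, Lat2, B2m and Tyrobp, the 3 genes most like Fcgr2b, and the markers that bear on a result. Results of some genes are not reported here.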

Additional observations from a re-analysis of the deposited data

How the results depend on the processing

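Fcgr2b kept its direction in all 12 alternatives and passed in 10. Its log2 change was 6.81 with limma-voom (0 members called) and 8.46 to 8.85 with 1 library left out, where 0 to 1 members were called. Fcgr3 and Fcgr4 kept their direction and passed in none. Fcgrt reversed without day 21 replicate 1 (0.22) and untreated replicate 2 (0.43), a range of -0.54 to 0.43. Genes called were 22, and 9 with total counts only, 41 with no filter, 12 with limma-voom, 11 with tags of 1 gene alone and 0 to 81 with 1 library left out. The 0, from edgeR without untreated replicate 1, came with 137 genes at an unadjusted p under 0.05. Tags called were 14, and 34 with no filter and 17 to 96 with 1 library left out. The cause was not tested. The Fcgr2b share differed by 1.27 to 2.08 percentage points with 1 library left out. A replicate block gave 40 genes and 156 tags and changed no call of a member. Same-numbered libraries deviated together (r = 0.54 across 2993 genes, which are not independent), but with 2 pairs the labels do not show that the numbers pair them. The ratio of receptors to Fcer1g was not run. Counts of 11 or fewer limit Fcgr1.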
